A study of Mus musculus with 23 samples.

Results

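The comparison described here is that of melanoma tumors injected with a combination of pentoxifylline (PTX, 60 mg/kg) and norcantharidin (NCTD, 3 mg/kg), the MIX_IT tumors 21 to 24, with tumors injected with dimethyl sulfoxide (DMSO), the CONTROL_IT tumors 9 to 12. The 8 tumors, 4 in each group, were chosen by the treatment and route that their labels give, out of 23 tumors in the series, and 12480 of the 56748 genes listed had enough reads to be tested. All tumors were grown from B16-F1 cells, a pigmented melanoma line derived from a C57BL/6 mouse, of which 700000 were implanted under the skin of the right flank of DBA/2J mice aged 6 to 8 weeks. Drugs were started once a tumor could be felt and were dissolved in DMSO for injection into the tumor, so the combination and its control shared the vehicle and the injections. The line and the host are of different strains with different MHC haplotypes, which limits the model as an immune one, and each library comes from a piece of whole tumor that holds host stroma, vessels and leukocytes beside the melanoma cells. Other groups used for context were PTX_IT (PTX alone, 3 tumors), NCTD_IT (NCTD alone, 4 tumors) and, given through the peritoneum, MIX_IP and CONTROL_IP (saline), with 2 tumors each. Route, batch and vehicle coincide in the labels and cannot be told apart.

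Pentoxifylline is a methylxanthine that inhibits phosphodiesterases, the enzymes that break down cyclic AMP, and is known for lowering the production of tumor necrosis factor. Norcantharidin is a demethylated analog of cantharidin, a compound of blister beetles that inhibits protein phosphatases, PP2A foremost. In pigment cells cyclic AMP acts through CREB on the transcription of Mitf, the microphthalmia-associated transcription factor, which binds E-box motifs in the promoters of melanin-synthesis genes, and PP2A opposes many kinases of growth signaling.

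Levels are given as CPM (counts of a gene relative to the counts of all genes in that tumor), scaled for library composition, always in the order of tumors 9, 10, 11 and 12 and of tumors 21, 22, 23 and 24. The 8 libraries held 3523406 to 6559840 counted reads, so that 3 counts, taken as the detection floor, stood for 0.457 to 0.851 CPM, a limit that covers counting error only. Melanocyte markers were present in all 8 tumors, with the summed level of 7 fixed markers at 26308 to 31354 CPM in CONTROL_IT and 15364 to 28533 CPM in MIX_IT. MIX_IT tumor 23 stood apart from the other 7 tumors, at 109.9 on a first principal component (40.9% of the variance) where they lay between -33.8 and 13.1. It also held the lowest melanocyte sum and the highest fibroblast sum, 7605 CPM over 6 fixed markers against at most 1600 CPM in the other MIX_IT tumors and 86.2 to 313 CPM in CONTROL_IT, and results that rest on it are given with and without it. Its share of ribosomal RNA reads, mitochondrial ones included, was 2.51%, against 1.05 to 1.41% in the other 7 tumors. It had a count in 15369 genes, against 15797 to 16808 in the others, and the part of library quality was not tested. Xist, the RNA of the inactive X chromosome, was at 0 to 0.567 CPM in CONTROL_IT and at 0 in MIX_IT, and Y-linked Ddx3y at 1.01 to 8.99 and 6.78 to 15.6 CPM, with overlapping groups. Uty, also Y-linked, was at 1.01, 1.32, 0.506 and 0 and 5.56, 0.922, 24.3 and 3.14 CPM, highest in tumor 23 and overlapping, and was higher by edgeR (log2 fold change 3.48 (SE 1.04)) and rose by DESeq2 (adjusted p 0.022). Without tumor 23 neither tool called Uty, and DESeq2 gave a log2 fold change of 2.13 and no adjusted p.

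The data showed many moderate differences and few that held after correction over all genes. By edgeR's quasi-likelihood test, fitted to the 15 intratumoral tumors, 0 of the 12480 genes (0%) passed an adjusted p of 0.05, and the smallest adjusted p was 0.0603. An unadjusted p below 0.05 was reached by 1622 genes (13%), of which 984 (7.88%) were higher and 638 (5.11%) lower in MIX_IT. DESeq2 on the 8 tumors alone, the tool the study used, placed 152 genes higher (1.27%) and 78 genes lower (0.652%) past its adjusted p of 0.05. Without tumor 23 the unadjusted edgeR counts were 603 higher (4.9%) and 422 lower (3.43%), and the DESeq2 counts were 129 higher (1.71%) and 90 lower (1.19%). The words "rose" and "fell" are kept for genes past the adjusted DESeq2 threshold on the 8 tumors, and "higher" and "lower" describe values or unadjusted edgeR p-values below 0.05. The p-values measure the spread between these tumors, each taken here as a mouse of its own, and the median log2 fold change over all genes was 0.01. Counts in the gene lists below are read against the shares of all genes given here. Counts without overlap are read against the 4.81% of all genes that were higher and the 5.19% that were lower in every MIX_IT tumor.

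The 15 higher genes with the smallest p included secreted proteases, actin regulators and a folliculin partner. All 15 rose by DESeq2, and in all 15 the 4 MIX_IT tumors lay above the 4 CONTROL_IT tumors, a pattern that 4.81% of all genes tested showed. The genes were chosen by their p in these same tumors, and the choice favors both counts. Podn, without a control read, and Mmp9, with control values at or under the floor, also passed the low-count filter only through treated tumors. Without tumor 23 DESeq2 called 11 of the 15, and for Mmp9, Mmp3, Podn and Emcn it gave no adjusted p there, since its filter on low means set them aside (unadjusted p 4.96e-10, 2.58e-06, 0.00176 and 0.00088). Fnip2 (chr3:79363281-79475103, GRCm39), which encodes a partner of the tumor suppressor folliculin at the lysosome, stood at 28.8, 35.5, 32.4 and 34.9 CPM in CONTROL_IT and at 101, 61.5, 122 and 67.6 CPM in MIX_IT. Its control values were close together and its combination values were split, tumors 21 and 23 lying well above 22 and 24. The log2 fold change was 1.42 (SE 0.23), a 2.67-fold difference (adjusted p 0.0832 by edgeR and 7.24e-05 by DESeq2), and 1.22 without tumor 23.

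Mmp9 (chr2:164782700-164797770), a gelatinase that degrades basement-membrane collagen, had 0.505, 0.219, 0.759 and 0.284 CPM in CONTROL_IT, all at or under the floor, and 12.8, 4.00, 34.6 and 24.5 CPM in MIX_IT, all above it. The groups held 7 and 376 reads in all, a ratio of 40.3 (19.4 to 101) as a 95% counting interval and of 31.04 (14.8 to 78.1) without tumor 23, with an adjusted DESeq2 p of 2.32e-08. Mmp3, the stromelysin that can activate other metalloproteinases, was at 0.505, 2.19, 4.05 and 2.55 CPM and 22.5, 7.38, 43.3 and 13.9 CPM (log2 fold change 3.20 (SE 0.65), 2.63 without tumor 23). Podn, which encodes the small leucine-rich proteoglycan podocan, had no read in any control tumor and 0.856, 1.38, 11.4 and 2.65 CPM in MIX_IT, at least 18.996-fold higher over a floor of 3 counts in the control group, a bound that fell to 8.98-fold without tumor 23, which held 47 of the 76 reads.

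Cttn encodes cortactin, which stabilizes branched actin at the cell's leading edge. Its level was 295, 291, 283 and 259 CPM in CONTROL_IT and 429.7, 467, 622 and 498 CPM in MIX_IT (log2 fold change 0.84 (SE 0.15)), one of the tightest separations among these genes. Arpc1a, a subunit of the Arp2/3 complex that nucleates those branches, was at 237, 221, 229 and 168 CPM and 297, 411, 567 and 445 CPM (log2 fold change 1.01 (SE 0.21)). Emcn, the endothelial sialomucin endomucin, was at 8.09, 7.89, 7.59 and 5.96 CPM and 20.1, 17.4, 28.7 and 12.2 CPM (log2 fold change 1.40 (SE 0.29)), and Smpdl3b, a membrane-anchored phosphodiesterase that acts on lipids, at 11.6, 10.96, 12.7 and 8.23 CPM and 45.8, 16.8, 44.6 and 29.9 CPM (log2 fold change 1.65 (SE 0.31)). The other 7 genes, Zfp346, Gmcl1, Bahcc1, Ahnak2, Rere, Smim30 and Ddhd2, rose with log2 fold changes from 0.69 (Rere, a nuclear receptor corepressor) to 1.16 (Ddhd2, an intracellular phospholipase).

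**Figure D1:**
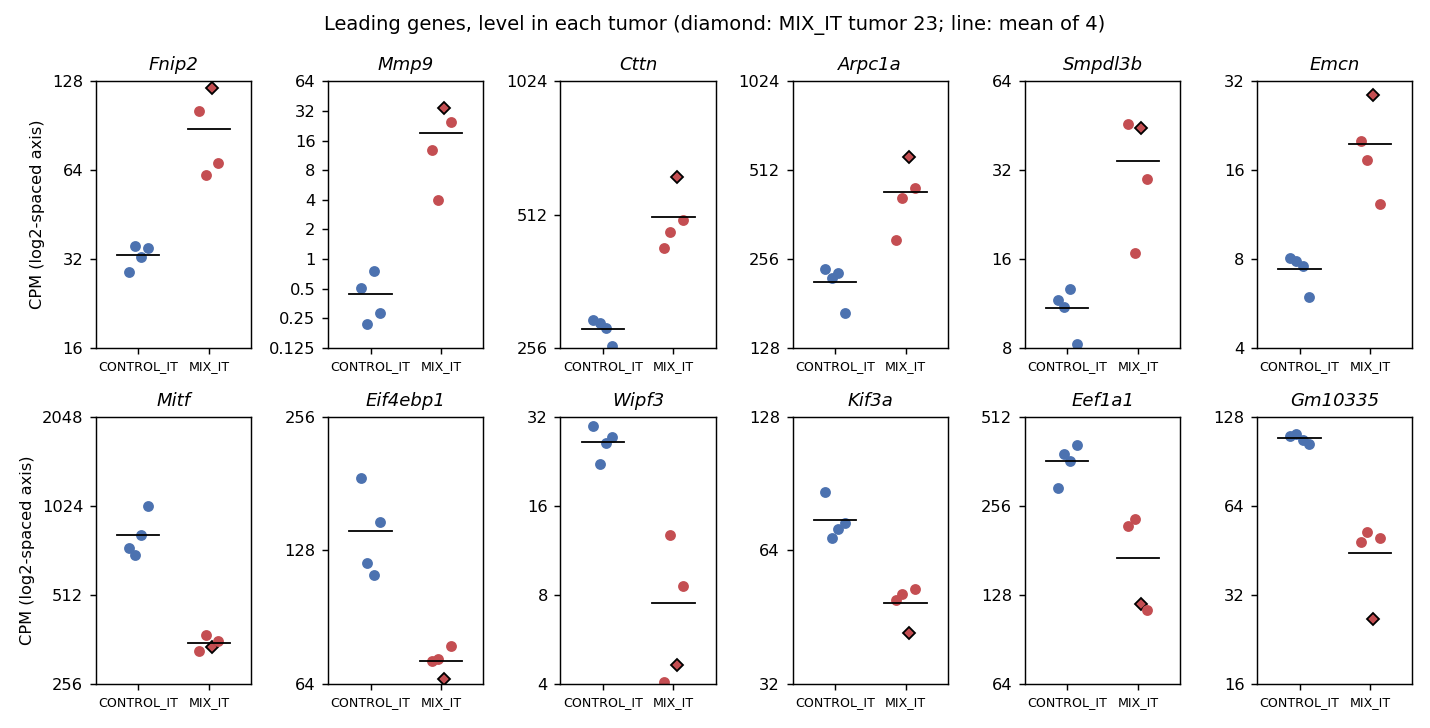
Level of 12 of the leading genes in each tumor, in CPM on log2-spaced vertical axes that differ between genes, with CONTROL_IT in blue, MIX_IT in red, a line at the mean of 4 tumors and a diamond for MIX_IT tumor 23. The groups do not overlap for any of the 12 genes, and Mitf lies at 329.9 to 376 CPM in MIX_IT against 698 to 1026 CPM in CONTROL_IT.

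Among the 15 lower genes with the smallest p, 13 fell by DESeq2, and 13 lay lower in every MIX_IT tumor than in any CONTROL_IT tumor, against 5.19% of all genes. The choice by p in the same tumors again favors both counts. Without tumor 23 DESeq2 called 10 of these genes, Kif3a being at an adjusted p of 0.0662 there and Tmem204 and Cfap77 receiving none. Mitf headed them and is described next. Eif4ebp1, the repressor of cap-dependent translation that mTOR switches off, was at 187, 120.1, 112 and 148 CPM in CONTROL_IT and 72.1, 72.9, 65.7 and 77.9 CPM in MIX_IT. The combination tumors were close together, below every control, with a log2 fold change of -0.97 (SE 0.19) (DESeq2 adjusted p 0.00181) that stayed at -0.93 without tumor 23. Wipf3, a partner of the actin regulator N-WASP, was at 29.8, 22.1, 26.1 and 27.5 CPM and 4.07, 12.8, 4.63 and 8.60 CPM (log2 fold change -1.79 (SE 0.42)). Kif3a and Dnai1 encode motor proteins of cilia, and their log2 fold changes were -0.63 (SE 0.15) and -0.93 (SE 0.21). Cfap77, another gene of the ciliary axoneme, varied widely among the controls, at 13.6, 0.438, 17.7 and 3.40 CPM, and had 0, 0.615, 0 and 0 CPM in the combination tumors, so the groups overlapped.

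Processed pseudogenes made up 4 of the 15, Rps18-ps3, Gm10335, Gm13456 and Gm15536, and Eef1a1 and Hmgn2 are parent genes with many processed copies. Reads of such genes can be assigned to a copy, and how reads with several matches were counted is not stated, so their values are uncertain. Gm10335 was at 110.2, 113, 108 and 104 CPM and 48.1, 52.3, 26.5 and 49.8 CPM (log2 fold change -1.29 (SE 0.30)). Rps18-ps3 was widely spread among the controls, at 38.2, 87.9, 215 and 70.1 CPM, and lay at 30.2, 18.4, 24.1 and 17.2 CPM in MIX_IT (log2 fold change -2.20 (SE 0.48)). For Hmgn2 the controls fell into 2 low and 2 high tumors (12.6, 111, 17.7 and 79.7 CPM), the combination tumors were at 14.8, 12.6, 14.1 and 8.76 CPM, and DESeq2 made no call (adjusted p 0.0938). Txnl4a, of the spliceosome, and Tmem204 fell with log2 fold changes of -0.81 (SE 0.20) and -1.87 (SE 0.44), while 2700097O09Rik, at -0.85 (SE 0.21), did not pass with DESeq2 (adjusted p 0.0937).

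Mitf (chr6:97784013-97998310, GRCm39), the master regulator of the melanocyte lineage and one of the proteins the study stained for, had the smallest p of all genes. The study stained MITF in tumors treated through the peritoneum and reported more of the protein with PTX and with the combination. The values here are of RNA, in other tumors that were injected with the drugs. Its level was 738, 698, 817 and 1026 CPM in CONTROL_IT and 329.9, 376, 340.3 and 358 CPM in MIX_IT. Every combination tumor lay below every control tumor, and the 4 combination values, tumor 23 included, were close to each other. The means were 819.7 ± 146 and 351 ± 20.1 CPM (SD, n = 4 each), 57.2% lower in the model, with a log2 fold change of -1.22 (SE 0.18), -1.21 without tumor 23, and from -1.29 to -1.09 when any tumor of the 8 was left out. The adjusted p was 0.0603 by edgeR and 5.65e-09 by DESeq2. The annotation holds 12 protein-coding Mitf transcripts that begin at 5 positions, and reads from the 3′ end of a transcript do not tell these starts apart.

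The genes that act beside Mitf are read against the 13% of all genes that passed an unadjusted edgeR p of 0.05 in either direction. Of 9 tested melanocyte transcription factors, Mitf alone was lower at an unadjusted p below 0.05, and the list median was -0.16 (-0.02 without tumor 23, where Sox5 was lower as well). Sox10, which acts with Pax3 on the Mitf promoter, was at 407, 429, 409 and 383 CPM and 310.0, 521, 253 and 381 CPM (log2 fold change -0.15 (SE 0.20)), with overlapping groups. Pax3 (0.08, SE 0.16) and Tfap2a (0.13, SE 0.17) also overlapped between groups, and Sox5, a repressor of pigment genes, was at -0.78 (SE 0.37) (edgeR unadjusted p 0.0514).

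The pigment genes, many of them known targets of Mitf, passed an unadjusted edgeR p of 0.05 at about the share of all genes (13% in either direction). Of 23 tested genes for pigment synthesis and the melanosome, 2 were higher and 1 was lower at an unadjusted p below 0.05, with a median log2 fold change of -0.08 (3 and 0, with a median of 0.09, without tumor 23). Tyr, which encodes tyrosinase, the rate-limiting enzyme of melanin synthesis, was at 686, 735, 759 and 759.6 CPM in CONTROL_IT and 1084, 764, 688 and 677 CPM in MIX_IT (log2 fold change 0.13 (SE 0.18)). Tyrp1, another enzyme of the pathway, was at 3069.7, 3461, 3547 and 3373 CPM and 3315, 3666, 2169 and 3394 CPM, and Pmel, the fibril protein of the melanosome, at 6629.6, 6014, 7117 and 6434 CPM and 6249.9, 7139, 2781 and 5474 CPM. In both genes tumor 23 was the lowest and the other tumors of the 2 groups overlapped, with log2 fold changes of -0.10 and -0.28 that became 0.04 and -0.06 without it. Mlana and Gpnmb were at 0.05 (SE 0.21) and -0.04 (SE 0.17).

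The lower one was Dct, dopachrome tautomerase, at 17758, 12409, 14265 and 12889.7 CPM and 12022, 13166, 7389.7 and 11024 CPM (log2 fold change -0.39 (SE 0.18)), a difference that shrank to -0.25 without tumor 23. Mc1r, the melanocortin receptor that raises cyclic AMP in pigment cells, lay at 516, 495, 498 and 426 CPM in CONTROL_IT and at 718, 630.3, 985 and 679 CPM in MIX_IT, where all 4 tumors were above all controls. It rose with a log2 fold change of 0.64 (SE 0.17) (DESeq2 adjusted p 0.0414). Mlph, which links melanosomes to myosin, was higher by 0.33 (SE 0.15) on the log2 scale.

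The promoters of several of these genes carry the E-box that MITF is known to bind. TCATGTG, searched on both strands from 250 bases before to 50 bases after the annotated start (GENCODE canonical transcripts, GRCm39), was in 7 of the 23 pigment genes (30.4%) and in 274 of 11133 protein-coding promoters read (2.46%). The related TCACGTG was in 4 of the 23 (17.4%) and in 664 of all (5.96%), and the 2 motifs do not overlap each other. The 11 pigment genes with either motif had a median log2 fold change of 0.05 and the other 12 one of -0.09. The following 30-base windows are shown because they hold these motifs (capitals, CACATGA and CACGTGA being the same motifs on the other strand) in the genes whose levels are given above, each on the strand of its gene.
Tyr, chr7:87142724-87142753, minus strand, 22 bases before the start: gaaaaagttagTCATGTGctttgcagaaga
Tyrp1, chr4:80752392-80752421, plus strand, 39 bases before the start: tggggagggagTCATGTGctgcctagtagt
Mc1r, chr8:124133758-124133787, plus strand, 77 bases before the start: gcacatgcccaTCATGTGgccaccctcagg
Dct, chr14:118289791-118289820, minus strand, 212 bases before the start: tgcacttagggTCATGTGctaacaaagagg
Mlana, chr19:29674974-29675003, plus strand, 242 bases before the start: acattagaCACATGAtaaaaatacttgttt
Mlph, chr1:90842763-90842792, plus strand, 13 bases before the start: caggagtagccCACGTGAtctgagccgcaa
Among these 6 genes, Mc1r rose, Dct was lower and Mlph higher at an unadjusted p below 0.05, and Tyr, Tyrp1 and Mlana did not pass it, so the same letters stood before genes of each kind. A match of letters is a description and does not show that MITF was bound there.

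**Figure D2:**
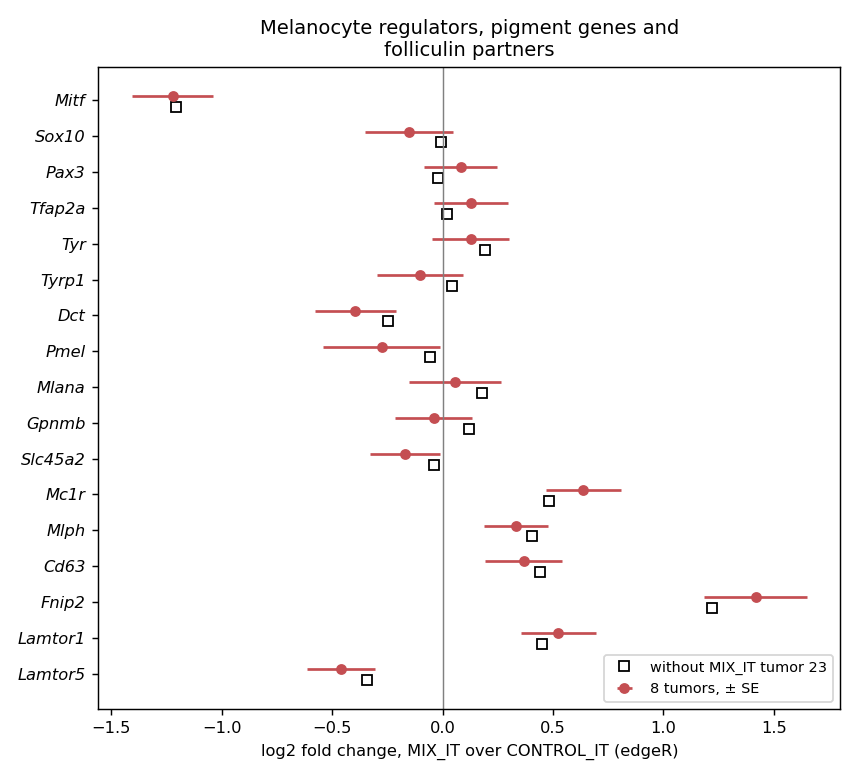
Log2 fold change of MIX_IT over CONTROL_IT for melanocyte regulators, pigment genes and folliculin partners, with the standard error (red, 8 tumors) and the value without MIX_IT tumor 23 (open squares). Mitf lies at -1.22 and Fnip2 at 1.42, with Mc1r at 0.64 and the other pigment genes drawn, a selection of the 23 tested, between -0.39 and 0.37.

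MITF belongs to a family with TFEB and TFE3, whose entry to the nucleus is held back by folliculin and its partners at the lysosome. Of 16 tested genes of this group, 2 were higher and 1 lower, with a median of 0.03. Besides Fnip2, the Ragulator subunit Lamtor1 was at 256, 209, 209 and 182 CPM and 282, 284, 353 and 310.1 CPM (log2 fold change 0.52 (SE 0.17)) and the subunit Lamtor5 at 131, 123, 119.7 and 117 CPM and 102, 87.01, 65.5 and 102 CPM (-0.46 (SE 0.15)), neither called by DESeq2 (adjusted p 0.0898 and 0.216). Subunits of a single complex thus differed in opposite directions without overlap between the groups.

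Genes of the extracellular matrix and of fibroblasts were higher in the combination tumors, most of all in tumor 23. Of 26 collagen chains 21 could be tested, and 12 were higher and 0 lower at an unadjusted p below 0.05, with a median log2 fold change of 1.40 (7 rose by DESeq2). Without tumor 23 there were 10 higher, 6 by DESeq2, and the median was 1.22. The summed collagen level was 325, 509, 527 and 726 CPM in CONTROL_IT and 2456, 805, 10340.0 and 1245 CPM in MIX_IT. All 4 combination tumors lay above the controls, tumor 22 by little and tumor 23 by over an order of magnitude. Some chains were tested because of their reads in MIX_IT, so the counts describe the tested chains only. The same can hold for members with few control reads in the matrix, fibroblast, endothelial and metalloproteinase lists that follow.

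Col1a1 and Col1a2 encode the chains of type I collagen, the main fiber of connective tissue. Col1a1 was at 65.2, 148, 132 and 219.8 CPM and 1052, 267, 4678 and 511 CPM, with a log2 fold change of 3.52 (SE 0.75) that fell to 2.10 without tumor 23. Col1a2 was at 17.7, 79.4, 61.2 and 78.6 CPM and 464, 123, 2667 and 207 CPM (3.87 (SE 0.87), then 2.15, where DESeq2 gave an adjusted p of 0.0514). Col3a1 and Col5a2, of the fibers that form with them, were at 3.24 and 2.58, and 1.99 and 1.57 without that tumor.

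Among 25 tested matrix glycoproteins and proteoglycans, of 33 listed, 13 were higher and 0 were lower. In every MIX_IT tumor 11 lay higher, against 4.81% of all genes. The median was 1.37, and 0.78 (10 higher) without tumor 23. DESeq2 called 7 of the 25, and 3 without tumor 23, where 2 of the 7 received no adjusted p. Tnc, which encodes tenascin-C, a matrix protein of wounds and tumors, was at 3.79, 9.65, 6.33 and 9.93 CPM and 37.9, 14.9, 83.02 and 28.4 CPM (log2 fold change 2.45 (SE 0.57), 1.85 without tumor 23). Periostin, Postn, was at 5.31, 13.2, 11.6 and 14.2 CPM and 62.3, 18.4, 241 and 44.98 CPM (3.04 (SE 0.70), then 1.91), and fibronectin, Fn1, at 26.5, 69.7, 54.2 and 73.2 CPM and 73.6, 150.2, 184 and 184 CPM (1.40 (SE 0.44), then 1.29). Thbs2 had log2 fold changes of 3.82 and 1.87 with and without that tumor.

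The fibroblast list moved with the matrix. Of 13 tested markers, out of 19 listed, 9 were higher and 0 lower, with a median of 2.23. Without overlap 7 lay higher, against 4.81% of all genes. Without tumor 23, 7 were higher, with a median of 1.17. DESeq2 called 6, and 4 without that tumor, where 1 received no adjusted p. The summed level was 203, 439, 410.5 and 509.7 CPM in CONTROL_IT and 2112, 713, 9115 and 1121 CPM in MIX_IT. Dcn, the collagen-binding proteoglycan decorin, was at 0.253, 10.7, 9.36 and 2.84 CPM and 62.1, 22.1, 167 and 23.3 CPM, and the platelet-derived growth factor receptors Pdgfrb and Pdgfra, which define these cells, were at 2.23 (SE 0.57) and 2.15 (SE 0.85) on the log2 scale, 1.17 and 1.17 without tumor 23. In a whole tumor, more cells of a type and more RNA per cell cannot be told apart, and the collagen and fibroblast lists share members.

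Endothelial markers were higher to a smaller extent. Of 16 tested, 5 were higher, 0 were lower and 3 rose by DESeq2, with a median of 0.71, and 4 were higher, with a median of 0.54, without tumor 23. DESeq2 then called none of the 3, with Cdh5 at an adjusted p of 0.114 and Emcn and Tie1 without one. Cdh5, the cadherin of vessel junctions, was at 8.84, 12.5, 17.5 and 22.7 CPM and 34.9, 29.1, 103 and 22.7 CPM, so that tumor 24 equalled the highest control (log2 fold change 1.62 (SE 0.42), 0.91 without tumor 23). Pecam1 was at 1.42 (SE 0.43), and Tie1, with 8 and 84 reads in the groups, had a ratio of 7.87 (3.82 to 18.8), or 6.04 (2.85 to 14.7) without tumor 23. Kdr and Flt1, the receptors of vascular endothelial growth factor, were at 0.73 (SE 0.42) and 0.20 (SE 0.29) with overlapping groups.

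The proteases were mixed. Of 10 tested matrix metalloproteinases 3 were higher, Mmp9, Mmp3 and the collagenase Mmp13, the last at 3.28, 14.9, 11.6 and 12.8 CPM and 44.9, 8.76, 174 and 19.2 CPM (log2 fold change 2.52 (SE 0.71), 1.17 without tumor 23). Mmp14, the membrane-bound member most abundant here, was at 378, 324, 352 and 268 CPM and 294, 302, 225 and 150.5 CPM (-0.44 (SE 0.21)). None of 4 tested inhibitors passed an unadjusted edgeR p of 0.05 or the DESeq2 threshold, and Timp1 was at 0.42 (SE 0.36). Of a list of 18 tested genes of the invasive melanoma state, 4 were higher, Tnc, Fn1, Lox and Twist1 (2 without tumor 23). Lox, which crosslinks collagen, was at 1.26, 4.17, 4.81 and 7.94 CPM and 9.63, 8.15, 27.8 and 11.9 CPM, and Twist1 rested on tumor 23, with 0, 1.54, 17.8 and 0 CPM in MIX_IT.

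**Figure D3:**
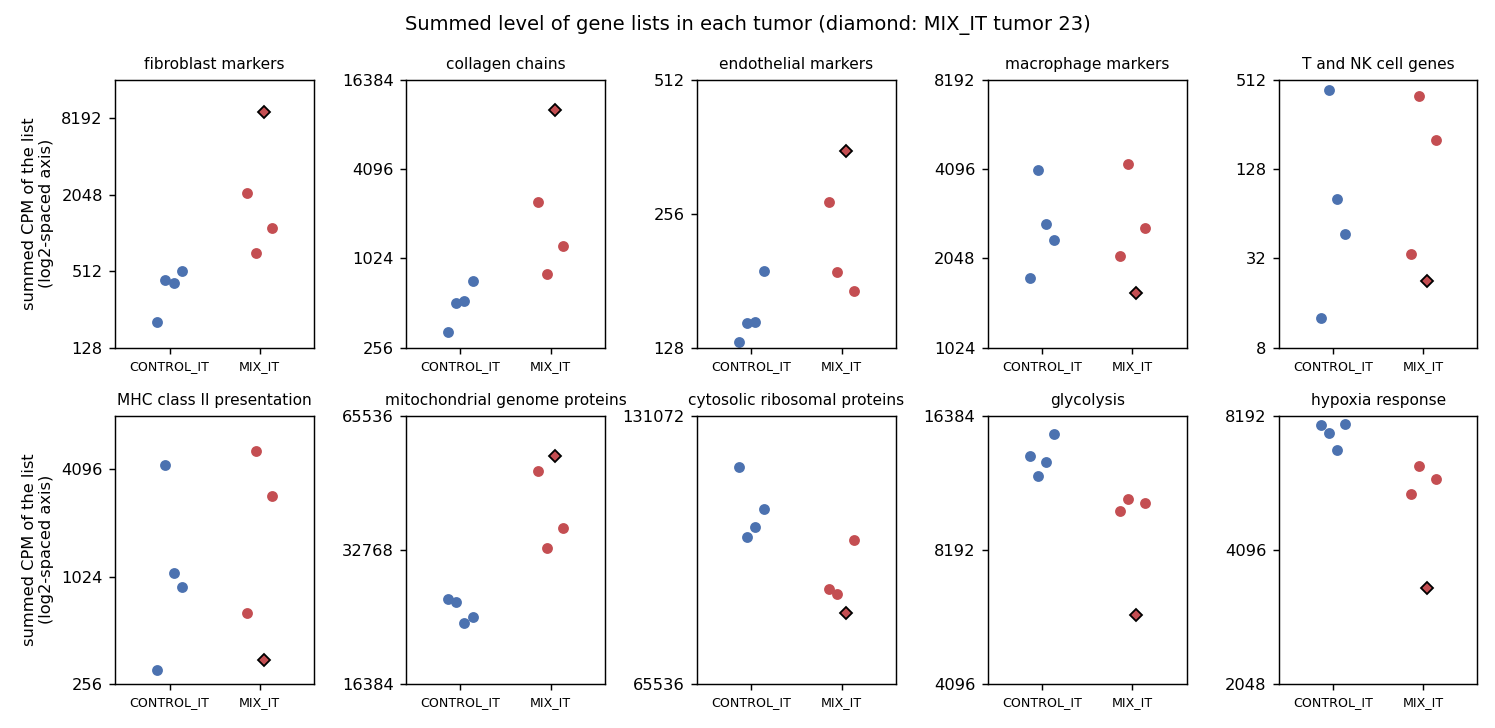
Summed CPM of the members of 10 gene lists in each tumor, on log2-spaced vertical axes that differ between lists, with CONTROL_IT in blue, MIX_IT in red and a diamond for MIX_IT tumor 23. Fibroblast and collagen sums are highest in tumor 23 (9115 and 10340 CPM), the mitochondrial sums do not overlap, and leukocyte sums are spread over both groups.

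Leukocyte genes varied widely among the tumors of each group. None of 24 tested T and NK cell genes passed an unadjusted edgeR p of 0.05 or a DESeq2 call, and their summed level was 12.6, 438, 81.2 and 46.5 CPM in CONTROL_IT and 34.2, 398, 22.6 and 201 CPM in MIX_IT. Tumors 10 and 22 were the richest of their groups. The same 2 tumors led the sums of 10 tested genes of MHC class II presentation, 306, 4359, 1068 and 889 CPM and 637, 5201, 348 and 2906 CPM, of which 0 passed. H2-Aa, a class II chain of antigen-presenting cells, was at 26.03, 2429, 352 and 289 CPM and 186, 3125, 20.2 and 1419 CPM, a log2 fold change of 0.62 (SE 1.25). Gzmb, the granzyme of cytotoxic lymphocytes, was at 0.758, 94.7, 10.4 and 7.37 CPM and 4.28, 61.96, 0 and 33.7 CPM (-0.17 (SE 1.19)).

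Of 27 tested macrophage markers 2 were higher and 1 lower, and 0 passed in either direction without tumor 23, with medians of 0.20 and 0.34. Adgre1, Csf1r and Cd68 were at 0.61 (SE 0.72), 0.25 (SE 0.67) and 0.05 (SE 0.55). MHC class I genes (18 tested) had 0 calls and a median of 0.16, and 42 tested interferon-response genes had 0 higher and 1 lower, the GTPase Irgm1 at -1.11 (SE 0.48), with a median of -0.27 that was 0.04 without tumor 23. DESeq2 called none of these lists' members.

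A pair of secreted signals of inflammation rose by DESeq2. Saa3, an acute-phase serum amyloid made by stromal cells and macrophages, was at 6.06, 17.1, 15.7 and 15.03 CPM in CONTROL_IT and at 208, 47.97, 134 and 128 CPM in MIX_IT. Every combination tumor exceeded the controls, tumor 22 by the least, and the log2 fold change was 3.26 (SE 0.69), 3.24 without tumor 23 (DESeq2 adjusted p 2.45e-12). Cxcl2, a chemokine that draws neutrophils, was at 10.4, 17.1, 12.7 and 8.51 CPM and 38.3, 61.96, 68.4 and 18.4 CPM, with a log2 fold change of 1.93 (SE 0.94) (adjusted p 0.396 by edgeR and 0.000814 by DESeq2). Of 10 tested neutrophil genes, Cxcl2 among them, 9 had a positive log2 fold change and 0 passed an unadjusted edgeR p of 0.05 (median 0.54). S100a9, a calprotectin subunit of neutrophils, was at 2.27, 1.75, 3.54 and 0.284 CPM in CONTROL_IT and 5.99, 5.38, 14.6 and 5.79 CPM in MIX_IT, without overlap and highest in tumor 23 (log2 fold change 1.96 (SE 1.37)), and its partner S100a8 at 2.02, 1.32, 1.52 and 1.70 CPM and 8.34, 6.30, 1.70 and 3.14 CPM, with overlap (1.57 (SE 1.17)). Cxcl12, a chemokine of stromal cells, was at 2.53 (SE 0.67), 1.40 without tumor 23. Of 26 tested chemokines and receptors 2 were higher and 1 lower at an unadjusted edgeR p below 0.05. In that list 12 had a positive and 14 a negative log2 fold change, with a median of -0.04 (0.31 without tumor 23).

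The summed transcripts of the mitochondrial genome were higher in every combination tumor. The 13 proteins it encodes, all subunits of the respiratory chain or of ATP synthase, had a summed level of 25425, 25013, 22472 and 23089 CPM in CONTROL_IT and 49399, 33135, 53320.3 and 36616 CPM in MIX_IT, which was 2.26 to 2.51% and 3.29 to 5.31% of all counted reads. The ranges did not meet, and tumors 21 and 23 were the highest. All 13 had a positive log2 fold change, 5 were higher at an unadjusted p below 0.05 and rose by DESeq2, and the median was 0.43 (0.40, again with 5 higher, without tumor 23). Cytochrome b, mt-Cytb, went from 8142, 7405, 6020.3 and 6621 CPM to 17935, 11833, 21254 and 15629 CPM, a log2 fold change of 1.24 (SE 0.26) (DESeq2 adjusted p 6.53e-06). The subunits mt-Nd1, mt-Nd4 and mt-Co2 were at 0.95 (SE 0.28), 0.78 (SE 0.24) and 0.71 (SE 0.23). The large ribosomal RNA mt-Rnr2 was also higher, at 0.99 (SE 0.31). The share of mitochondrial reads is also used as a sign of RNA quality, and its part in the other results was not tested.

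Nuclear genes for the same complexes were not higher as a group. Of 74 tested, 4 were higher and 7 lower, with a median of -0.13 (6 and 5, with a median of -0.02, without tumor 23, and 2 and 2 without CONTROL_IT tumor 12). Ndufb3, of complex I, was at 0.38 (SE 0.14), and Atp5e and Atp5h, both of ATP synthase, at -0.72 (SE 0.25) and -0.53 (SE 0.19). Ppargc1a, the coactivator PGC-1α that drives mitochondrial genes, was at 115, 94.9, 122 and 127 CPM and 380.0, 105, 174 and 189 CPM, highest in tumor 21 and within the control range in tumor 22 (log2 fold change 0.89 (SE 0.32)).

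Genes of the cytosolic translation apparatus were lower as a broad, shallow group. Of 79 tested ribosomal proteins 33 were lower and 1 higher at an unadjusted p below 0.05, 27 lay lower in every MIX_IT tumor, and 9 fell by DESeq2. The median was -0.37, and without tumor 23 it was -0.31 with 23 lower and 11 by DESeq2. Without CONTROL_IT tumor 9 there were 18 lower and without tumor 12 there were 22. The summed level was 114719, 95731, 98415 and 103033 CPM in CONTROL_IT and 83732, 82665, 78667 and 95049 CPM in MIX_IT, with every combination tumor below every control, tumor 24 by the least. Rps3, of the small subunit, was at 2159.8, 1741, 1949 and 2018 CPM and 1035, 1279.5, 965 and 1509 CPM (log2 fold change -0.72 (SE 0.18)), and Rpl10a, of the large subunit, at 497, 359, 425 and 490.1 CPM and 240.3, 267, 170.2 and 304 CPM (-0.85 (SE 0.24)). Rplp0 and Rps27 fell with -0.53 (SE 0.15) and -0.67 (SE 0.18).

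Of 42 tested genes in a list of initiation factors 12 were lower and 3 higher, with a median of -0.22 (5 lower and 1 higher without tumor 23, median -0.24, and 7 lower without CONTROL_IT tumor 9). The 12 include Eif4ebp1, a repressor of initiation, which was the lowest of the list at -0.97. Eif3e and Eif3f, subunits of the scaffold complex eIF3, fell with log2 fold changes of -0.57 (SE 0.16) and -0.65 (SE 0.18). Eif2s3x, the gamma subunit of the factor that carries the initiator tRNA, went the other way, from 109, 114, 90.6 and 98.1 CPM to 135, 157, 260.2 and 205 CPM (0.88 (SE 0.20)). Eef1a1, the elongation factor that delivers aminoacyl-tRNA, was at 296, 386, 363 and 414 CPM and 219.5, 232, 119 and 114 CPM (-1.09 (SE 0.26)), with the limit on copied genes given above.

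The copies of these genes were also lower. Processed pseudogenes made up 64 of the 638 lower genes (10.0%), 12 of the 984 higher genes (1.22%) and 467 of the 12480 tested (3.74%). Of 91 tested ribosomal protein pseudogenes 19 were lower and 0 higher, with a median of -0.31, close to that of the ribosomal proteins themselves, and 19 were lower without tumor 23. How many of their reads belong to the parent genes was not tested.

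Genes of the integrated stress response, which ATF4 drives, and of the response to stress in the endoplasmic reticulum (ER) included more lower than higher members. Of 35 tested 10 were lower and 4 higher (7 and 3 without overlap), with a median of -0.49, and 8 and 4 with a median of -0.45 without tumor 23. This count leaned on CONTROL_IT tumor 9 and MIX_IT tumor 21, without which 3 and 6 were lower. Trib3, a pseudokinase induced by ATF4, was at 45.5, 25.4, 31.1 and 35.2 CPM in CONTROL_IT and 8.99, 18.4, 3.16 and 16.7 CPM in MIX_IT (log2 fold change -1.51 (SE 0.42)), and Asns, asparagine synthetase, at 129, 101, 116 and 122 CPM and 62.5, 45.97, 34.1 and 80.4 CPM (-1.07 (SE 0.34)). Both fell by DESeq2. Hsp90b1, the ER chaperone GRP94, rose from 961, 1126, 1004 and 901 CPM to 1872, 1328, 1484 and 1722 CPM (0.68 (SE 0.21)), and Ern1, the ER stress sensor IRE1, was at 0.86 (SE 0.23) (DESeq2 adjusted p 0.0492, 0.0775 without tumor 23).

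Glycolytic genes, and fewer of the hypoxia-response genes, were lower. Of 21 tested glycolysis genes 9 were lower and 1 higher, 10 without overlap below the controls, with a median of -0.50, and 6 were lower with a median of -0.34 without tumor 23 and 5 without CONTROL_IT tumor 12. Their summed level was 13291, 11993, 12889.6 and 14888 CPM in CONTROL_IT and 10025, 10639, 5829.6 and 10446 CPM in MIX_IT, where tumor 23 was far below the others and those still lay below every control. Slc16a3, the lactate exporter MCT4, was at 42.7, 28.1, 36.9 and 50.5 CPM and 7.70, 20.4, 6.33 and 16.9 CPM (log2 fold change -1.60 (SE 0.42)) and alone fell by DESeq2 (adjusted p 0.0064). Tpi1, triose phosphate isomerase, was at 2074, 1800.2, 2157 and 2383 CPM and 1509.8, 1722, 776 and 1432 CPM (-0.63 (SE 0.21), -0.44 without tumor 23), and Eno1 and Gapdh, which have many processed copies and are uncertain, at -0.99 (SE 0.33) and -0.99 (SE 0.36).

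Of 27 tested hypoxia-response genes 6 were lower and 2 higher, with 8 below every control, a median of -0.60, and 4 lower with a median of -0.37 without tumor 23. The count ran from 3 without tumor 21 to 13 without tumor 22. Car9, a carbonic anhydrase that marks hypoxic tumor, was at 149.8, 175, 117 and 165 CPM and 45.8, 114, 9.25 and 84.7 CPM (log2 fold change -1.25 (SE 0.48), -0.89 without tumor 23). Egln1, the oxygen sensor that HIF itself induces, and Bnip3l, a receptor for the removal of mitochondria, fell with -0.81 (SE 0.30) and -0.66 (SE 0.21).

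**Figure D4:**
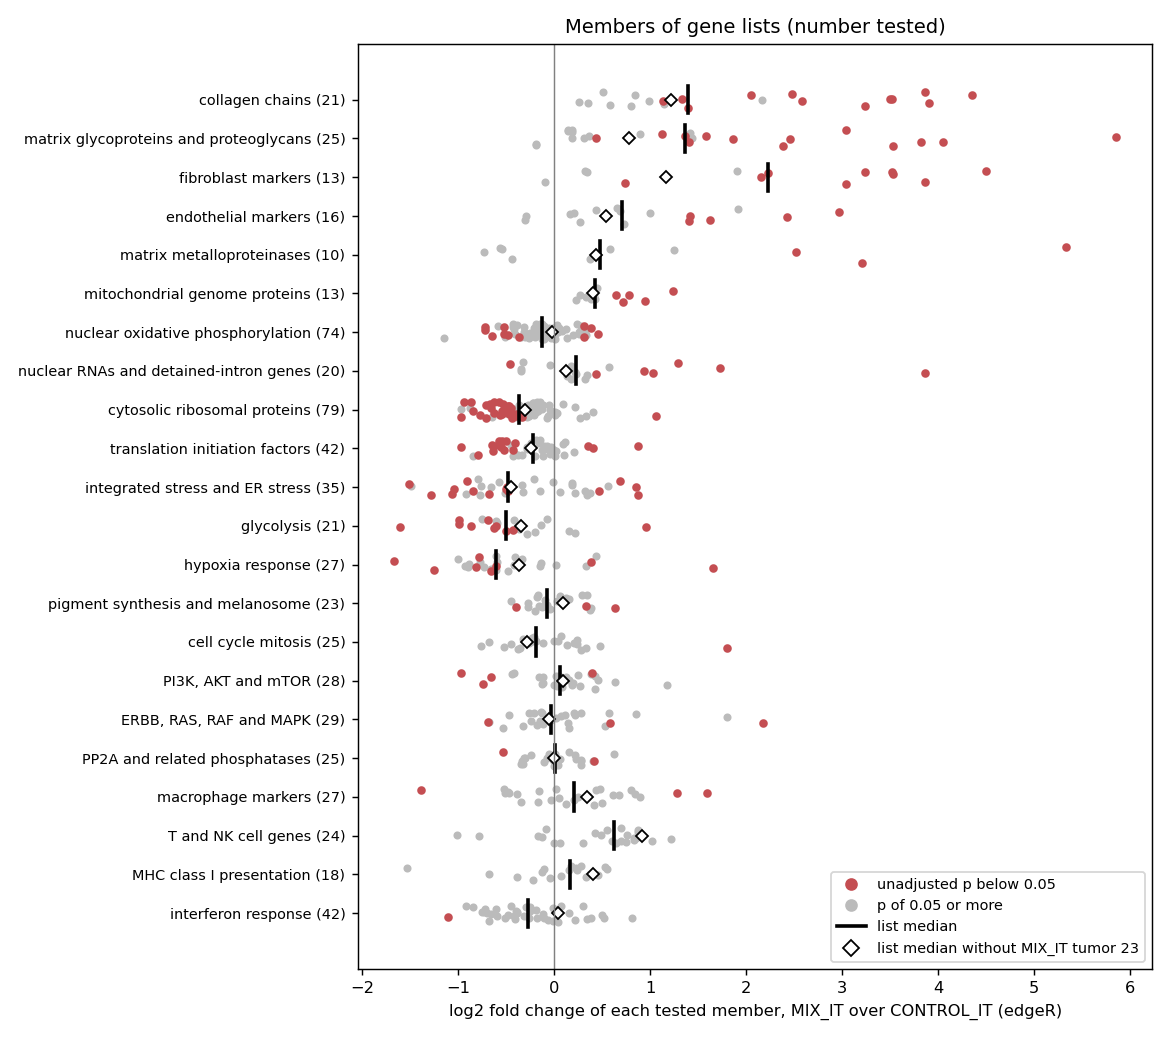
Log2 fold change of each tested member of 22 gene lists (number tested in brackets), red where the unadjusted edgeR p was below 0.05, with the list median as a bar and the median without MIX_IT tumor 23 as an open diamond. Fibroblast, collagen and matrix lists lie to the right with medians of 2.23, 1.40 and 1.37, and ribosomal proteins, glycolysis and hypoxia genes to the left with -0.37, -0.50 and -0.60.

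Some RNAs that stay in the nucleus were higher. Of 20 tested nuclear RNAs and genes with detained introns 6 were higher and 1 lower, 3 rose by DESeq2, and the median was 0.22. Without tumor 23 there were 4 higher and 1 lower, with a median of 0.12. Malat1, a long noncoding RNA of nuclear speckles, was at 76.1, 88.6, 76.7 and 96.7 CPM and 156, 192, 499 and 272 CPM (log2 fold change 1.73 (SE 0.44), 1.29 without tumor 23). Neat1, the scaffold of paraspeckles, was at 164, 253, 189 and 234 CPM and 349, 422, 553 and 388 CPM (1.03 (SE 0.28)), and Rsrp1 at 186, 221, 222 and 219.8 CPM and 461, 341, 833 and 434 CPM (1.29 (SE 0.29)). Each lay higher in all 4 combination tumors. Txnip, the thioredoxin-binding protein that restrains glucose uptake, was at 229.7, 563, 269 and 254 CPM and 588, 705, 811 and 672 CPM, with control tumor 10 just below the combination range (log2 fold change 1.08 (SE 0.41), DESeq2 adjusted p 0.0175).

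The study stained for further proteins of growth signaling, in groups that included doses given only through the peritoneum. The levels of their transcripts in the tumors described here overlapped between the groups. Braf, the kinase of the RAS pathway, was at 12.6, 15.1, 16.96 and 16.5 CPM and 11.6, 24.4, 14.6 and 17.2 CPM (log2 fold change 0.15 (SE 0.24)). Erbb2, the receptor HER2, was low in all tumors, at 3.79, 1.32, 3.80 and 2.55 CPM and 4.07, 3.54, 8.52 and 4.63 CPM (0.85 (SE 0.63)). Pik3ca, Akt1 and Mtor, 3 kinases of the PI3K pathway, were at 0.04 (SE 0.18), 0.08 (SE 0.33) and 0.20 (SE 0.21). Within 2 SE these values span -0.42 to 2.11 for Erbb2, -0.33 to 0.64 for Braf, -0.32 to 0.39 for Pik3ca, -0.58 to 0.74 for Akt1 and -0.22 to 0.62 for Mtor. Differences inside these ranges are not excluded by these tumors.

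Of 28 tested PI3K, AKT and mTOR genes 1 was higher and 3 were lower (median 0.06). The lowest was Eif4ebp1, described above, at -0.97, the 1 member that DESeq2 called. Rictor, of mTOR complex 2, was at 0.39 (SE 0.17). Of 29 tested ERBB, RAS, RAF and MAPK genes 2 were higher and 1 lower (median -0.04), and 1 was higher and 0 lower without tumor 23.

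Few genes of the cell cycle passed the test. Of 22 tested S-phase genes 0 and of 25 tested mitosis genes 1 passed an unadjusted edgeR p of 0.05, with medians of 0.04 and -0.19 (-0.24 and -0.29 without tumor 23), and DESeq2 called none. Pcna was at 277, 204, 237 and 267 CPM and 240.3, 124, 249 and 179 CPM (-0.32 (SE 0.29)). Of 17 tested p53 targets 3 were higher (median 0.33) and 1 without tumor 23. Mdm2, which degrades p53, was at 0.67 (SE 0.19), and the cell cycle inhibitor Cdkn1a was at -0.66 (SE 0.32), lower in every combination tumor at an unadjusted edgeR p of 0.0571. Of 16 tested BCL2-family genes 0 passed with either tool (median 0.16), with Bcl2 and Mcl1 at 0.18 (SE 0.27) and -0.01 (SE 0.16).

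Transcripts of the drugs' known targets and their relatives are read against the shares of all genes, 7.88% higher and 5.11% lower. Of 12 tested phosphodiesterases and adenosine receptors 2 were higher (median 0.32), 1 without tumor 23. Of the 12, 11 had a positive log2 fold change, as did 6372 of all 12480 genes. Pde1c, a calcium-dependent phosphodiesterase, was at 7.83, 10.5, 6.33 and 10.2 CPM in CONTROL_IT and 17.1, 19.2, 17.04 and 18.4 CPM in MIX_IT, with close values inside each group, and rose with a log2 fold change of 1.04 (SE 0.35) (DESeq2 adjusted p 0.041). Without tumor 23 DESeq2 gave it no adjusted p (unadjusted p 0.00109). Of 17 tested cyclic AMP response genes 1 was higher and 1 lower (median -0.07), the orphan receptor Nr4a3 being at -0.69 (SE 0.20). Of 25 tested PP2A and related phosphatase genes 1 was higher and 1 lower, 0 without tumor 23 (median 0.01), the catalytic subunit Ppp2ca being at 394, 333, 388 and 376 CPM and 358, 341, 389 and 398 CPM (-0.01 (SE 0.13)) and the regulatory subunit Ppp2r2a at 0.41 (SE 0.15).

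The single drugs by the same route are given side by side, since their comparisons use the same 4 control tumors. Their tumors also differed from the controls in host sex genes, with Xist at 1.29 to 13.4 CPM and Ddx3y at 0 to 0.29 CPM in PTX_IT and NCTD_IT. Mitf had log2 fold changes of -1.22 with the combination, -0.86 with NCTD and -0.46 with PTX. For Fnip2 the values were 1.42, 1.15 and 0.75, for mt-Cytb 1.24, 1.14 and 0.58, and for Saa3 3.26, 3.01 and 1.11. Mmp3 was at 3.20 and 3.38 with the combination and NCTD and at 0.29 with PTX. Cxcl2 and S100a9 were at 4.86 and 6.63 with NCTD against 1.93 and 1.96 with the combination. List medians with the combination, NCTD and PTX were 1.40, 1.29 and 0.95 for collagens, -0.37, -0.44 and -0.26 for ribosomal proteins, and 0.62, 1.70 and 1.40 for T and NK cell genes.

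The same drugs at the same doses were also given through the peritoneum, in other tumors. Of the 30 leading genes 11 had the same direction in MIX_IP over CONTROL_IP and 19 the opposite one. The difference between routes was tested on all 23 tumors, and by edgeR 0 of 13395 genes (0%) passed an adjusted p of 0.05 (smallest 0.295), with 996 (7.44%) at an unadjusted p below 0.05. Of the leading genes, chosen on the intratumoral contrast that enters this test, 26 were among them, a count that the choice favors. Mitf was at -0.05 in MIX_IP and the route difference was -1.17 (SE 0.32), with an unadjusted p of 0.00151. Fnip2 was at 0.21 and mt-Cytb at -0.21 through the peritoneum. List medians there were -0.40 for collagens and 0.07 for ribosomal proteins.

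DESeq2 placed 4 genes past an adjusted p of 0.05 for the difference between routes. Gmcl1 differed by 1.37 (SE 0.32, adjusted p 0.0489), with log2 fold changes of 0.99 in MIX_IT and -0.39 in MIX_IP. Rps18-ps3 differed by -4.23 (SE 0.77, adjusted p 0.000245), from -2.20 and 2.03. Alg9, a mannosyltransferase of N-glycan synthesis, and Epb41l2, a cytoskeletal protein of the band 4.1 family, differed by 1.41 (SE 0.30, adjusted p 0.0123) and 1.17 (SE 0.28, adjusted p 0.0489). With 2 tumors in each peritoneal group, a route difference of the size of the Mitf change could be missed after correction.

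**Figure D5:**
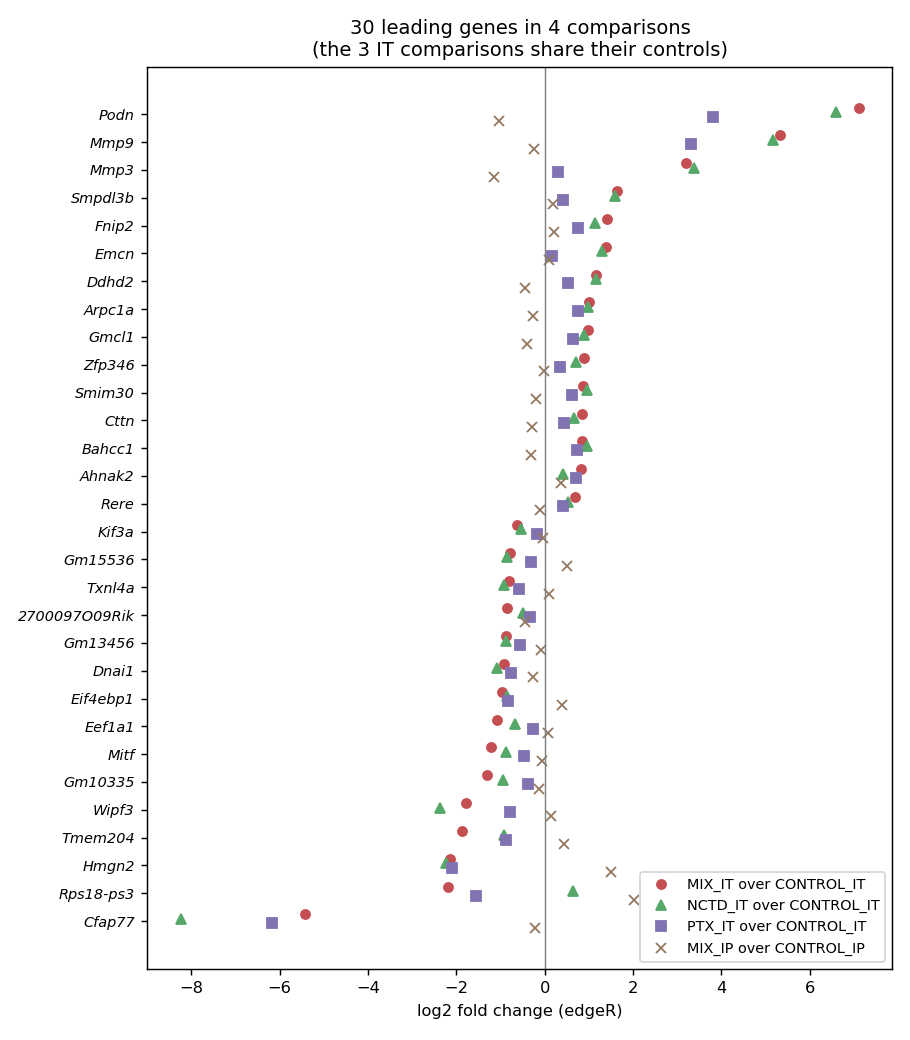
Log2 fold changes of the 30 leading genes in 4 comparisons, MIX_IT (red circles), NCTD_IT (green triangles) and PTX_IT (purple squares) over the shared CONTROL_IT tumors and MIX_IP (brown crosses) over CONTROL_IP. The red points are the values by which the genes were chosen, and 19 of the 30 brown crosses lie on the other side of 0.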

How the data were processed

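The table held raw read counts per gene. Per the labels and the study's methods, the authors trimmed 3′ mRNA libraries (paired reads), aligned them with STAR 2.7.11b to GRCm39 and counted reads per gene with STAR, and they deposited these counts without normalization. Strand, molecular identifiers and the handling of reads with several matches are not given in the sources used here. Each tumor is 1 library, and groups follow the labels. Genes passed edgeR's filterByExpr (minimum count 10, minimum total 15). CPM used library sizes scaled by TMM. The main test was the quasi-likelihood test of edgeR 4.0.16 (R 4.3.3) on the 15 intratumoral tumors, 4 groups, two-sided, with Benjamini-Hochberg adjustment. Alternatives were DESeq2 1.42.0, 8 or 23 tumors in the fit, other size factors, no filter, protein-coding genes alone, Xist as a covariate and leaving out each tumor. DESeq2 without MIX_IT tumor 23 and limma-voom (limma 3.58.1) with tumor weights were added after seeing the data. The edgeR fit was tested on simulated counts with changes larger than most of those reported here and no outlying tumor. That simulation did not cover smaller changes or a tumor set apart from its group. Replicate libraries differed by more than sampling noise.

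The comparison and the gene lists were chosen with earlier results of these data known. Named genes are the 15 with the smallest p in each direction, those whose proteins the study stained, and in each list up to 4 with the smallest p or, in marker lists and lists without a p below 0.05, those with the highest mean level. Tyr, Pdgfra, Pdgfrb, Adgre1, Csf1r, Cd68, Ppp2ca, Alg9 and Epb41l2 were named outside this rule, after their values were seen. E-box windows were read from GRCm39 with the GENCODE vM39 annotation, in which 11133 of 11141 tested protein-coding genes had a window. The annotation release behind the deposited counts is not given in the sources used here. A few genes that the naming rule selects are not reported here.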

Additional observations from a re-analysis of the deposited data

Results flagged for a closer look

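In 343 sets of 4 values (a gene's or list's CPM in the tumors of 1 group), 31 held a tumor standing far from the other 3 (9.04%). The rule took the gap to the nearest tumor over the range, on unlogged CPM. Its nominal rate of 5% holds for independent sets of normally distributed values. These sets share genes, and CPM need not be normally distributed, so 9.04% cannot be set against that rate. Of the 31 values, 19 were in MIX_IT tumor 23, 6 in CONTROL_IT tumor 10, 3 in CONTROL_IT tumor 12, 2 in CONTROL_IT tumor 9 and 1 in MIX_IT tumor 22.

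MIX_IT tumor 23 was highest in stromal and vascular genes. It held 2667 CPM of Col1a2 against at most 464 in the other MIX_IT tumors, 256 of Thbs2 against at most 29.1, 59.6 of Pdgfrb against at most 15.2, 16.6 of Pdgfra against at most 3.64, 103 of Cdh5 against at most 34.9 and 120 of Cxcl12 against at most 27.4. Its summed CPM was 9115 for fibroblast markers and 3213 for matrix glycoproteins, where the other tumors reached 2112 and 1749. It was also highest in Mdm2 at 233 CPM, S100a9 at 14.6 and Adra2a at 27.8, and in the sums of dendritic cell genes at 166, p53 targets at 776, nuclear RNAs and detained-intron genes at 5240 (5239.8) and keratinocyte genes at 19.7. It was lowest in Gm10335 at 26.5 CPM, Bcl2 at 21.7 against at least 51.3, Gsta4 at 5.84 against at least 30.3, and in the glycolysis sum at 5830 (5829.6) against at least 10025.

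CONTROL_IT tumor 10 was highest in immune genes. H2-Aa, an MHC class II chain, was at 2429 CPM there against at most 352 in the other controls, Gzmb, the cytotoxic granule enzyme granzyme B, was at 94.7 against at most 10.4, and T and NK cell genes summed to 438 against at most 81.2. It was highest as well in Txnip at 562.5 CPM, Mdm2 at 112 and the immediate early sum at 1040 (1039.5). CONTROL_IT tumor 12 was lowest in Ndufb3 at 629 CPM and in the metalloproteinase sum at 320.5, and highest in Nr4a3 at 191. CONTROL_IT tumor 9 was highest in Tmem204 at 15.2 CPM and lowest in Rsrp1 at 186. MIX_IT tumor 22 held the highest erythroid sum, 5081 CPM, against at most 968.

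By DESeq2 on all 23 tumors, 4 genes differed in their response to the combination between the routes at an adjusted p below 0.05, where edgeR called 0. The log2 difference (intratumoral minus intraperitoneal) was 1.17 for Epb41l2, 1.37 for Gmcl1, 1.41 for Alg9 and -4.23 for Rps18-ps3, a ribosomal protein pseudogene whose reads may be shared with near-identical copies.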

How the results depend on the processing

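No gene passed an adjusted p of 0.05 by edgeR on the 15 intratumoral tumors, where 1622 passed an unadjusted p of 0.05. DESeq2 called 230 genes on the 8 tumors, 183 on the 15 and 219 without MIX_IT tumor 23, and limma-voom with tumor weights called 73. In edgeR, 9 were called with all 23 tumors in the fit, 364 with no filter, 1 among protein-coding genes alone and 22 with Xist as a covariate, and 0 with the 8 tumors alone or with DESeq2 size factors. Leaving out 1 tumor gave 0 to 3 calls at the adjusted p, the 3 being Fnip2, Smpdl3b and Mmp9 without MIX_IT tumor 22. At the unadjusted p it gave 1025 (without MIX_IT tumor 23) to 1966 genes (without MIX_IT tumor 22), and 2453 passed with no filter. The cause of these differences was not tested. The share higher among genes at the unadjusted p was 60.7%, and 51.2% both by limma-voom with tumor weights and by DESeq2 without MIX_IT tumor 23. The comparison of routes held 0 calls by edgeR and 4 by DESeq2. No paired analysis was possible because each tumor has its own number and no number is shared between the groups.

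Of 119 genes followed by log2 fold change, 105 kept their direction under each alternative that gave them a value, and the other 14 each had a log2 fold change of 0.62 or less in size. Leaving out 1 tumor gave -0.021 to 0.16 for Pax3, -0.046 to 0.20 for Tyr, -0.19 to 0.041 for Tyrp1, -0.056 to 0.18 for Mlana and -0.14 to 0.12 for Gpnmb. It gave -0.51 to 2.42 for H2-Aa, -1.13 to 2.04 for Gzmb, -0.11 to 0.94 for Csf1r and -0.38 to 0.62 for Cd68, the highest of each without CONTROL_IT tumor 10. It gave -0.080 to 0.30 for Braf, -0.035 to 0.16 for Pik3ca, -0.16 to 0.25 for Akt1, -0.062 to 0.070 for Mcl1 and -0.053 to 0.031 for Ppp2ca. DESeq2 without MIX_IT tumor 23 turned Pax3 (-0.021), Tyrp1 (0.040), Gpnmb (0.12), Gzmb (0.23), Pik3ca (-0.012) and Mcl1 (0.037). The limma-voom fit turned Pax3 (-0.011), Gpnmb (0.017), Gzmb (0.85), Pik3ca (-0.10), Akt1 (-0.037) and Mcl1 (0.040). Xist as a covariate turned Gzmb (0.54), Akt1 (-0.0012) and Mcl1 (0.046), and the edgeR fit of the 8 tumors alone turned Ppp2ca (0.0057).

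With 4 tumors a group, 1 of them apart from the rest, genes with few reads carried wide intervals, and counting intervals cover counting error only. Fewer cells of a type and less RNA per cell cannot be told apart here. The labels give each route its own batch, and the vehicles differed (DMSO and saline), so these cannot be told apart from the route.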

Other observations

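Counts in several further groups are given here, to be read against 7.88% of all genes higher and 5.11% lower at an unadjusted edgeR p below 0.05. Of 33 tested NRF2 targets and glutathione genes 2 were higher and 3 lower (1 and 1 without MIX_IT tumor 23), with a median log2 fold change of 0.04. Gsta4, a glutathione transferase that detoxifies lipid peroxides, was at 67.97, 52.8, 67.6 and 55.02 CPM in CONTROL_IT and 32.5, 30.3, 5.84 and 30.4 CPM in MIX_IT and fell by DESeq2 (log2 fold change -1.29, SE 0.40, adjusted p 0.0492). It was also lower in MIX_IP, at -1.14. Fth1, the ferritin heavy chain, was at -0.61 (SE 0.26). Of 18 tested clock genes 3 were higher and 2 lower (1 and 2 without tumor 23), with Rora at -0.78 (SE 0.25), Nfil3 at -1.29 (SE 0.53) and Nr1d2, the repressor REV-ERB beta, at 0.51 (SE 0.19).

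Adra2a, the alpha-2A adrenergic receptor and the only tested member of its list of 11, had 8 reads in CONTROL_IT and 161 in MIX_IT, a ratio of 15.1 (7.48 to 35.6) as a 95% counting interval, and lay at 3.85, 1.38, 27.8 and 3.31 CPM in MIX_IT (DESeq2 adjusted p 0.00405). Without tumor 23 its log2 fold change went from 4.10 to 2.44 and the ratio to 5.46 (2.55 to 13.4), and DESeq2 gave no adjusted p (unadjusted p 0.00821). Fabp4, a fatty acid carrier of adipocytes and capillary endothelium, was at 78.3, 67.96, 82.8 and 85.4 CPM and 224, 106, 522 and 75.4 CPM, with tumor 24 inside the control range, and the adipocyte marker Cidec was at 0 in all 8 tumors. Of 19 tested inflammatory cytokines and receptors 3 were higher and 0 lower (2 without tumor 23), with Il1r1 at 4 against 54 reads and Il13ra1 at 1.18 (SE 0.44). Traf3, of the NF-kappa B pathway, was at 0.80 (SE 0.23), the 1 member of 20 at an unadjusted p below 0.05. Of 23 tested immediate early genes 2 were higher and 1 lower (1 and 2 without tumor 23), with Egr1 at 1.11 (SE 0.47) and Srf at -1.91 (SE 0.75). Hemoglobin transcripts varied within both groups, Hbb-bs being at 4631, 860.0, 1195 and 2086 CPM and 474, 2624, 493 and 507 CPM.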
